A study of Mus musculus with 12 samples.

Results

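Macrophages given lipopolysaccharide (LPS), the cell wall component of Gram-negative bacteria that Toll-like receptor 4 senses, switch on a small set of metabolic genes that make nitric oxide, take up and split arginine, make itaconate and detoxify superoxide. The genes described here are Nos2, Arg1, Arg2, Slc7a2, Ass1, Gch1, Acod1 and Sod2, taken by name from the array's probe annotation and from probe sets that name 1 gene. Of these 8 genes 7 had a value, among 19937 genes tested, and each of the 7 was read by 1 probe set. Both probe sets of Ass1, which joins citrulline and aspartate on the way back to arginine, also name the predicted gene Gm5424, so Ass1 has no value here.

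Newly made RNA was measured on 12 arrays in 4 groups of 3. Bone marrow-derived macrophages (BMM) from C57BL/6 mice were grown in DMEM with 10% fetal calf serum and the growth factor M-CSF, and were either mock-treated or given R-LPS, the rough form of LPS. MPI-2, a single self-renewing macrophage line from C57BL/6 fetal liver that needs GM-CSF to grow, was kept in RPMI with 10% fetal calf serum and GM-CSF and treated in the same 2 ways. All 4 groups were labelled for 60 min with 4-thiouridine, which enters only the RNA made during that time. In the LPS groups labelling started 30 min after LPS, so their labelled RNA covers 30 to 90 min of exposure. Cell type, growth factor, medium and organ of origin changed together between BMM and MPI-2, so their parts in a difference cannot be told apart. The study compared the response of the 2 kinds of macrophage to LPS at the level of transcription.

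Nos2 encodes the inducible nitric oxide synthase, which makes nitric oxide from arginine with tetrahydrobiopterin as a cofactor, and Gch1 encodes the first enzyme of tetrahydrobiopterin synthesis. Arginase 1 and arginase 2 split the same arginine into ornithine and urea, and Slc7a2 encodes a cationic amino acid transporter that brings arginine into macrophages. Acod1 makes itaconate from cis-aconitate of the citrate cycle, and Sod2 is the superoxide dismutase of mitochondria.

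Values are the deposited log2 expression values. A group's level is its mean over 3 arrays with their SD, and differences are given with their standard error (SE) and a 95% interval where one is printed. The SE rests on 1 spread per gene pooled over the 4 groups, so it is the same in BMM and MPI-2. The BMM arrays varied more. The median SD of a gene was 0.176 in BMM mock and 0.204 in BMM LPS, against 0.120 in MPI-2 mock and 0.109 in MPI-2 LPS. A gene is said to rise, fall or differ when limma's adjusted p, by Benjamini-Hochberg over all 19937 genes, was under 0.05. The background level was set at 3.36, under which 95% of 1027 olfactory receptor genes had their mean, and 60.3% of genes had a mean above it. Where a gene differed and all 3 arrays of the dimmer group lay under that level, the fold is given as a bound ("at least"), computed against 3.36, beside the fitted difference. Replicate arrays correlated at 0.975 to 0.989 within the BMM groups and at 0.994 to 0.996 within the MPI-2 groups. BMM mock replicate 1 and BMM LPS replicate 3 correlated least with their own groups, with a mean r of 0.98 and 0.976. Of 10 macrophage markers 9 were measured, and all 9, among them Adgre1, Csf1r, Itgam and Cd68, were above background in every group. Of 9 hepatocyte markers measured, 3 or 4 were above background in each group, while Afp, Ttr, Cps1, Otc and Tat were under it in all 4.

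After LPS, 6 of the 7 measured genes rose in BMM, namely Slc7a2, Acod1, Nos2, Sod2, Arg2 and Gch1, and none fell. Over all genes, 10.3% rose and 15.3% fell in BMM. In MPI-2, 4 of the 7 rose, Acod1, Sod2, Slc7a2 and Gch1, and none fell, against 5.17% and 9.58% of all genes. In bulk RNA such as this, more cells making a transcript and more of it per cell, or fewer cells of a type and less RNA per cell, cannot be told apart. The median change of the 7 genes was 2.21 in BMM and 0.62 in MPI-2 on the log2 scale, against 0.04 and 0.02 over all genes. The size of the response differed between the cell types for 6 of the 7 genes: Acod1 rose more in MPI-2, and Nos2, Slc7a2, Arg2, Gch1 and Sod2 had the smaller change in MPI-2. Over all genes, 7.08% had a higher and 6.27% a lower response in MPI-2 than in BMM. In either direction, 25.6% of all genes changed in BMM and 14.8% in MPI-2, and 13.3% differed in response. The order of the cell types in that share turned with the model: a fit to each cell type's arrays alone called 3464 genes in BMM and 5026 in MPI-2. LPS and mock arrays did not overlap for 6 of the 7 genes in BMM and 4 in MPI-2, as for 32% and 37.1% of all genes. The same numbers of these genes passed in each comparison when both least correlated BMM arrays were left out, a setting chosen after the data were seen. They were not all the same genes: between the cell types with LPS, Sod2 was lost (0.24, limma adjusted p = 0.139) and Gch1 gained (-0.32, limma adjusted p = 0.0478).

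**Figure D1:**
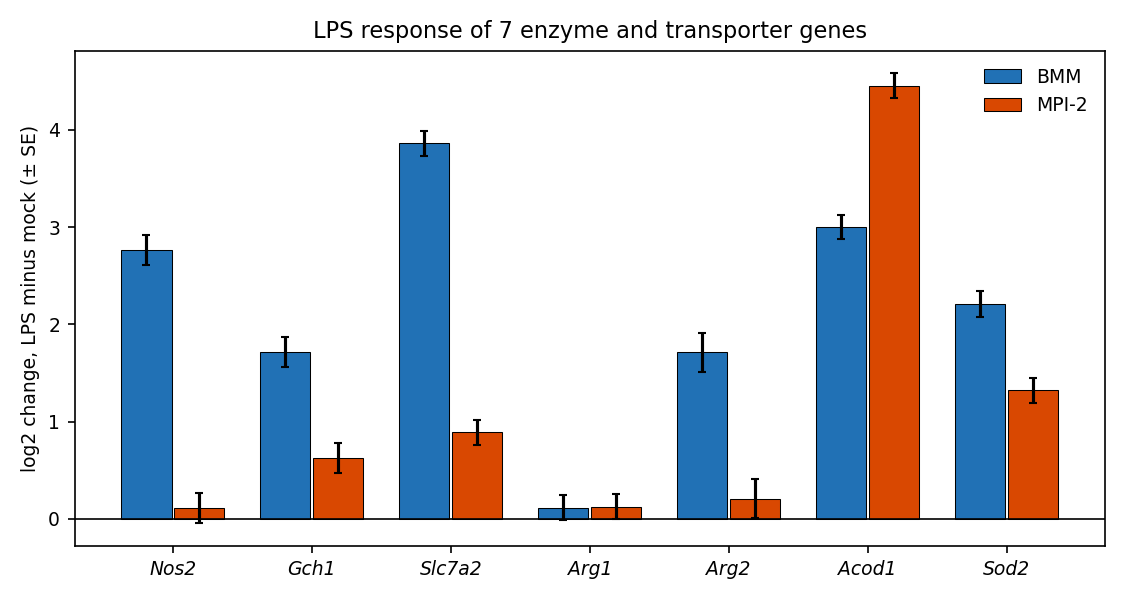
Change after LPS in BMM and MPI-2 for the 7 measured genes. The vertical axis is the log2 difference between the LPS and mock means, bars are 1 gene in 1 cell type, and error bars are the SE from limma. The MPI-2 bar of Acod1, 4.46, stands above its BMM bar, 3.00, while those of Nos2, Gch1, Slc7a2, Arg2 and Sod2 stand below theirs. Arg1 is near 0 in both.

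Nos2 was switched on by LPS in BMM and stayed at background in MPI-2. In BMM it read 3.08, 3.04 and 2.89 on the mock arrays and 5.52, 6.01 and 5.78 on the LPS arrays. In MPI-2 it read 2.73, 3.13 and 2.93 without LPS and 3.12, 3.20 and 2.80 with it. The 3 BMM LPS arrays were high and did not overlap any other group, while the other 9 arrays overlapped one another and all lay under the background level. The rise in BMM was 2.76 ± 0.155 on the log2 scale (95% interval 2.43 to 3.09, limma adjusted p = 2.58e-09), from 3.00 ± 0.098 to 5.77 ± 0.24 (SD, n = 3). With BMM mock taken at background, that is at least 5.29-fold. It was the 111th largest increase of all genes tested in BMM.

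In MPI-2 the change in Nos2 was 0.11 ± 0.155 (interval -0.22 to 0.44, limma adjusted p = 0.794). The difference between the responses, MPI-2 minus BMM, was -2.65 ± 0.219 (limma adjusted p = 7.78e-07), with both MPI-2 groups under background. With LPS, Nos2 was at least 5.29-fold higher in BMM than in MPI-2, with means of 5.77 and 3.04 (-2.73 ± 0.155, MPI-2 minus BMM, limma adjusted p = 9.1e-10). Without LPS the cell types were at -0.07 ± 0.155 of each other (interval -0.40 to 0.26, limma adjusted p = 0.738), with both groups under background.

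From a list of nitric oxide synthases and the proteins that bind or regulate them, 11 other genes were measured. Of these, 1 rose and 1 fell after LPS in BMM, and 1 rose in MPI-2, with medians of -0.11 and 0.05. These counts, and those of the lists below, stand beside 10.3% and 15.3% of all genes that rose and fell in BMM. In MPI-2 those shares were 5.17% and 9.58%. Ddah2, which breaks down methylated arginines that inhibit the synthases, rose by 0.65 ± 0.115 in BMM (limma adjusted p = 0.000456), at least 1.45-fold with its mock arrays under background. Calm2, 1 of the calmodulin genes, was the gene that fell, by 0.47 ± 0.148 (limma adjusted p = 0.0298), a call lost in 7 of 21 settings. Hsp90aa1, an inducible heat shock chaperone, rose by 1.04 ± 0.181 in MPI-2 (limma adjusted p = 0.000795). The neuronal and endothelial synthases, named here outside the rule for named genes, gave values of -0.10 ± 0.169 (Nos1) and 0.17 ± 0.154 (Nos3) in BMM, neither of which passed the test.

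Gch1, the rate-limiting enzyme for the cofactor of nitric oxide synthase, rose in both cell types, and more in BMM. It was 1 of 3 measured genes here with an entry in the RefSeq promoter table (GRCm38.p6), the others being Acod1 and Sod2. All 3 rose after LPS in both cell types, so the 250 bases before each start site are shown with the gene, to show which known promoter elements they share and which they do not. A total of 8 motifs were searched on both strands. The TATA box was taken as TATAAA. The GC box, the site of Sp1, was taken as GGGCGG, and the element bound by NF-Y as the letters of the CCAAT box. The cAMP response element was taken by its core TGACG and the site of AP-1 as TGANTCA. The STAT site was searched as TTCNNNGAA, and the interferon-stimulated element as a pair of GAAA words with any 2 bases between them. The NF-kappa B consensus, the site of the factor that LPS activates, was searched by its full pattern. The NF-kappa B consensus and the GC box can overlap, and a match describes letters, not binding. The Gch1 stretch lies at chr14:47189414-47189663 on the minus strand, written 5′ to 3′ with motif matches in capitals:
Gch1: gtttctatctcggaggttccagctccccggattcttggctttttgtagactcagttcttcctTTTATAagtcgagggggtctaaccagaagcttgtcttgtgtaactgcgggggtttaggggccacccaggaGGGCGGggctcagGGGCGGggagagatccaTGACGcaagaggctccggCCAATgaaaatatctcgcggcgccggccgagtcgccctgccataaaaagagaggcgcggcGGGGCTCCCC
It holds the NF-kappa B consensus in its last 10 bases, directly before the start site, 2 GC boxes, 1 cAMP response core and 1 CCAAT box. A TATA match stands on the opposite strand, 188 to 183 bases before the start. Of 32851 promoter stretches of the same length, 3.9% held the NF-kappa B consensus, 32.7% a GC box, 17.8% the cAMP response core, 33.8% a CCAAT box and 12.4% a TATA box.

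In BMM, Gch1 read 5.80, 6.29 and 6.42 on the mock arrays and 7.72, 7.93 and 8.0 on the LPS arrays. The MPI-2 arrays gave 6.92, 6.79 and 6.94 without LPS and 7.41, 7.47 and 7.62 with it. LPS arrays were higher than mock arrays in both cell types, and no groups overlapped. The order from low to high was BMM mock, MPI-2 mock, MPI-2 LPS and BMM LPS, so the BMM groups lay outside the MPI-2 groups on both sides.

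The rise of Gch1 was 1.71 ± 0.153 in BMM, 3.28-fold (limma adjusted p = 4.45e-07), and 0.62 ± 0.153 in MPI-2, 1.54-fold (limma adjusted p = 0.0103). The MPI-2 response was smaller, with a difference of -1.09 ± 0.216 (interval -1.55 to -0.63, limma adjusted p = 0.00267). The call in MPI-2 held in 19 of 21 alternative settings, with values of 0.56 to 0.70 over all of them. It was lost without MPI-2 mock replicate 2 (0.57 ± 0.177, limma adjusted p = 0.0515) or MPI-2 LPS replicate 3 (0.56 ± 0.176, limma adjusted p = 0.0565). In these 2 fits the estimate changed little and the SE was larger.

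Of the 6 other tetrahydrobiopterin genes measured, 1 passed upward and 2 downward in BMM, and none upward and 2 downward in MPI-2, with medians of -0.23 and -0.17. The 2 in BMM, Pts (-0.51 ± 0.151) and Pcbd2 (-0.35 ± 0.116), were 0 without both least correlated BMM arrays and 0 to 3 over the settings (limma adjusted p = 0.0197 and 0.0344). Pts, which carries out the step after Gch1, fell by 1.07 ± 0.151 in MPI-2, from 5.48 to 4.41 (limma adjusted p = 0.00013). The 1 upward call, Pcbd1, a dehydratase of cofactor recycling, had means of 2.82 and 3.32 in BMM, both under background, so no change is read from it. Qdpr, which regenerates the cofactor, was higher in MPI-2 than in BMM by 1.72 ± 0.155 without LPS and by 1.16 ± 0.155 with it (limma adjusted p = 2.39e-07 and 1.5e-05).

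Slc7a2, the arginine transporter, had the largest rise of these genes in BMM and was already high in untreated MPI-2. In BMM it read 5.29, 5.22 and 5.05 on the mock arrays and 9.14, 9.19 and 8.82 on the LPS arrays. The MPI-2 arrays gave 10.66, 10.60 and 10.57 without LPS and 11.37, 11.64 and 11.47 with it. The 4 groups did not overlap and ran upward from BMM without and with LPS to MPI-2 without and with LPS, so untreated MPI-2 lay above LPS-treated BMM, by 1.56.

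In BMM the rise was 3.86 ± 0.131 (interval 3.58 to 4.14), 14.6-fold (limma adjusted p = 9.12e-12), the 43rd largest increase of all genes. In MPI-2 it was 0.89 ± 0.131 (interval 0.61 to 1.17), 1.85-fold (limma adjusted p = 0.00019), and 0.50 after quantile normalization (limma adjusted p = 0.0145). The response in MPI-2 was smaller, with a difference of -2.97 ± 0.185 (limma adjusted p = 4.29e-08). Without LPS, Slc7a2 was 5.42 ± 0.131 higher in MPI-2 than in BMM, 42.8-fold, the 8th largest of 19937 differences in that direction (limma adjusted p = 1.81e-13). With LPS the gap was 2.45 ± 0.131, 5.45-fold (limma adjusted p = 4.56e-10).

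Arg1, the cytosolic arginase best known from liver and from macrophages exposed to interleukin-4, was at background throughout. In BMM it read 2.76, 2.67 and 3.01 without LPS and 3.06, 2.79 and 2.92 with it. In MPI-2 it read 2.62, 2.84 and 2.78 without LPS and 2.75, 2.90 and 2.95 with it. All 12 arrays lay under the background level and all neighbouring groups overlapped. The change after LPS was 0.11 ± 0.129 in BMM (interval -0.16 to 0.39, limma adjusted p = 0.583) and 0.12 ± 0.129 in MPI-2 (interval -0.15 to 0.40, limma adjusted p = 0.687). At this background, differences in Arg1 transcription were not detectable.

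Arg2, the mitochondrial arginase, rose in BMM and was at background in MPI-2. In BMM it read 4.06, 3.28 and 3.85 on the mock arrays, 2 of the 3 above background, and 5.35, 5.86 and 5.12 on the LPS arrays. In MPI-2 it read 2.60, 2.58 and 2.63 without LPS and 2.62, 2.84 and 2.96 with it. The BMM LPS arrays were the highest, the BMM mock arrays came next, and the MPI-2 groups overlapped each other and lay under all BMM arrays.

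The rise of Arg2 in BMM was 1.72 ± 0.201, 3.28-fold (interval 1.29 to 2.14, limma adjusted p = 8.19e-06), from 3.73 ± 0.404 to 5.45 ± 0.382 (SD, n = 3). In MPI-2 the change was 0.21 ± 0.201 (interval -0.22 to 0.64, limma adjusted p = 0.658), and the difference of the responses was -1.51 ± 0.284 (limma adjusted p = 0.00179), with both MPI-2 groups under background. With LPS, Arg2 was at least 4.23-fold higher in BMM, with means of 5.45 and 2.81 (-2.64 ± 0.201, MPI-2 minus BMM, limma adjusted p = 2.76e-08). Without LPS it was at least 1.29-fold higher in BMM, where 2 of 3 arrays were above background (-1.13 ± 0.201, MPI-2 minus BMM, limma adjusted p = 0.000294).

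**Figure D2:**
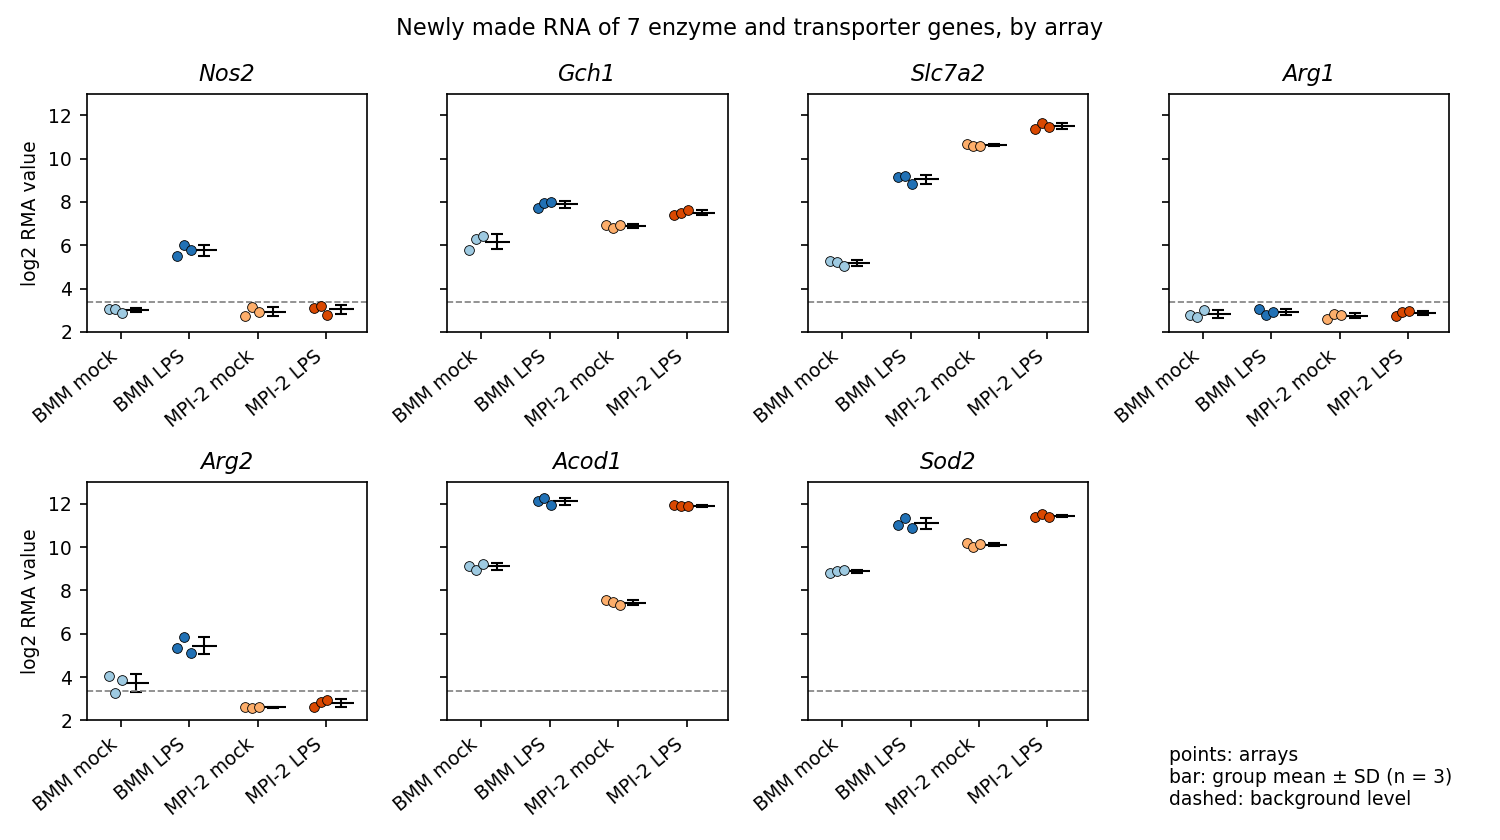
Log2 RMA values of the 7 measured genes on each array. Points are arrays, horizontal bars with whiskers are the group mean ± SD (n = 3), and the dashed line is the background level of 3.36. Nos2 leaves the background only in BMM LPS and Arg1 in no group, while the Slc7a2 groups step up from 5.19 in BMM mock to 11.50 in MPI-2 LPS.

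Of 18 other arginine genes measured, 2 rose and 6 fell in BMM (median -0.32), and none rose and 3 fell in MPI-2 (median -0.08), and the 6 became 3 after cyclic loess or in a fit to the BMM arrays alone. The number that rose in BMM is a share near that of all genes. Slc7a7, the y+L transporter that exports arginine with Slc3a2, moved in opposite directions: it rose by 1.50 ± 0.191 in BMM, from 5.92 to 7.42, and fell by 1.09 ± 0.191 in MPI-2, from 5.70 to 4.61 (limma adjusted p = 1.86e-05 and 0.000832). The difference of these responses was -2.59 ± 0.269 (limma adjusted p = 7.61e-06). Aldh18a1, which makes the proline and ornithine precursor pyrroline-5-carboxylate, fell by 1.01 ± 0.216 in BMM and fell by 0.95 ± 0.216 in MPI-2 (limma adjusted p = 0.00235 and 0.00601). Slc38a9, the lysosomal arginine sensor, fell by 1.52 ± 0.264 in BMM, and its value in MPI-2 was -0.79 ± 0.264 (limma adjusted p = 0.000404 and 0.0605).

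Between the cell types, 7 of these 18 arginine genes were higher and 4 lower in MPI-2 without LPS, and 6 and 6 with it. Over all genes, 20.6% were higher and 17.9% lower without LPS, and 22.5% and 21.6% with it. The number lower without LPS is a share near that of all genes. Slc7a1, the constitutive arginine transporter, was higher in MPI-2 by 1.67 ± 0.224 without LPS and by 1.93 ± 0.224 with it (limma adjusted p = 1.93e-05 and 3.3e-06). Gatm, which uses arginine for the first step of creatine synthesis, averaged 6.79 in BMM mock and 2.74 in MPI-2 mock, under background, and so was at least 10.7-fold higher in BMM (-4.04 ± 0.241, MPI-2 minus BMM, limma adjusted p = 2.13e-09).

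Ornithine made by arginase feeds polyamine synthesis. Of 11 polyamine genes measured, none rose and 3 fell in BMM (median -0.03), and 3 rose and 1 fell in MPI-2 (median 0.13). The 3 became 1 without MPI-2 mock replicate 1. Odc1, the ornithine decarboxylase that opens the pathway, fell by 1.60 ± 0.198 in BMM, from 8.67 to 7.07, and rose by 0.87 ± 0.198 in MPI-2, from 6.87 to 7.74 (limma adjusted p = 1.42e-05 and 0.00606). The difference of the Odc1 responses was 2.47 ± 0.279 (limma adjusted p = 1.71e-05). Azin1, which protects Odc1 from its antizyme, fell by 1.06 ± 0.198 in BMM (limma adjusted p = 0.000765). Srm, the spermidine synthase, was higher in MPI-2 than in BMM by 3.06 ± 0.207 without LPS and by 2.55 ± 0.207 with it (limma adjusted p = 9.17e-09 and 5.72e-08).

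Acod1, the itaconate-making enzyme, rose strongly in both cell types with the larger rise in MPI-2, unlike Nos2, Gch1, Slc7a2, Arg2 and Sod2. Its promoter stretch, chr14:103046762-103047011 on the plus strand of GRCm38.p6 from RefSeq, is shown as for Gch1, with matches to the same motifs in capitals:
Acod1: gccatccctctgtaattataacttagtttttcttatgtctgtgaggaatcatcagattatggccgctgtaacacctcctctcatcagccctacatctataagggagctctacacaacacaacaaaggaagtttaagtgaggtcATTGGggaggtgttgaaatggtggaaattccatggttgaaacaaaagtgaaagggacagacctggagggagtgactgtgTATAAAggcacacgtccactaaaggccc
The TATA box stands 28 to 23 bases before the start on the strand of the gene, and a CCAAT box on the opposite strand, 107 to 103 bases before it. The letters of the other 6 motifs are not in this window.

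In BMM, Acod1 read 9.14, 8.94 and 9.23 on the mock arrays and 12.13, 12.27 and 11.92 on the LPS arrays. The MPI-2 arrays gave 7.54, 7.44 and 7.31 without LPS and 11.92, 11.87 and 11.87 with it. Both LPS groups were high and near each other, though BMM LPS lay just above MPI-2 LPS, and the mock groups were apart, with MPI-2 the lower. No groups overlapped.

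The rise of Acod1 was 3.00 ± 0.126 in BMM (interval 2.73 to 3.27), 8.02-fold, and 4.46 ± 0.126 in MPI-2 (interval 4.19 to 4.73), 22-fold (limma adjusted p = 1.17e-10 and 2.57e-12). In MPI-2 it was the 14th largest increase of all genes and in BMM the 90th. The MPI-2 response was larger by 1.45 ± 0.179 (interval 1.07 to 1.83, limma adjusted p = 3.86e-05). Without LPS, Acod1 was 3.18-fold lower in MPI-2 (a difference of -1.67 ± 0.126, limma adjusted p = 3.33e-08). With LPS the difference was -0.22 ± 0.126 (interval -0.49 to 0.05, limma adjusted p = 0.174), and -0.42 after quantile normalization and -0.54 after cyclic loess, where it passed (limma adjusted p = 0.0079 and 0.00506). LPS values of Acod1 lay near the top of the scale, whose highest value over all genes and arrays was 12.82. The MPI-2 LPS values of Slc7a2 (11.37 to 11.64) and Sod2 (11.39 to 11.51) also lay in its upper part. Saturation, which would lower a measured rise, was not tested for the probes of these genes.

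The genes of the citrate cycle, which supplies the substrate of Acod1, and of itaconate handling were taken as 1 list. On that list more fell than rose, and many had no call. Genes of itaconate handling were not counted apart. Of 30 other genes measured on that list, 2 rose and 13 fell in BMM, with a median of -0.42, and none rose and 9 fell in MPI-2, with a median of -0.35. The number that fell in MPI-2 was 17 in a fit to the MPI-2 arrays alone and 16 with array weights. Got1, the cytosolic aspartate aminotransferase of the malate-aspartate shuttle, fell by 3.65 ± 0.261 in BMM, from 9.73 to 6.08, and fell by 0.95 ± 0.261 in MPI-2, from 7.24 to 6.29 (limma adjusted p = 4.08e-08 and 0.021). The difference of the Got1 responses was 2.71 ± 0.369 (limma adjusted p = 0.000103).

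Mdh1, the cytosolic malate dehydrogenase, fell by 1.32 ± 0.17 in BMM and fell by 0.85 ± 0.17 in MPI-2 (limma adjusted p = 2.25e-05 and 0.00238). Idh1, the cytosolic isocitrate dehydrogenase, fell by 1.61 ± 0.227 in MPI-2 and fell by 0.81 ± 0.227 in BMM (limma adjusted p = 0.000129 and 0.0148), and the difference of these responses did not pass (-0.80 ± 0.32, limma adjusted p = 0.134). Idh3g, a subunit of the mitochondrial NAD-dependent isocitrate dehydrogenase, fell by 1.38 ± 0.128 in BMM and fell by 0.43 ± 0.128 in MPI-2 (limma adjusted p = 6.78e-07 and 0.0329). The genes that rose in BMM were Cs, citrate synthase, by 0.96 ± 0.166, and Slc13a3, a dicarboxylate transporter, by 1.61 ± 0.171 (limma adjusted p = 0.000401 and 2.97e-06).

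In the comparison of cell types, 16 of these 30 genes were higher and 4 lower in MPI-2 without LPS, and 18 and 3 with it. The 18 became 11 after quantile normalization. Over all genes, 20.6% were higher and 17.9% lower without LPS, and 22.5% and 21.6% with it. Idh3a was higher in MPI-2 by 3.06 ± 0.219 without LPS and by 3.11 ± 0.219 with it (limma adjusted p = 1.7e-08 and 1.07e-08). Slc13a3 went the other way, with a difference of -3.07 ± 0.171 with LPS (limma adjusted p = 7.26e-10).

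Sod2, the mitochondrial manganese superoxide dismutase, rose in both cell types, from a higher starting level in MPI-2. Its promoter stretch, chr17:13007589-13007838 on the plus strand of GRCm38.p6 from RefSeq, is shown as for Gch1 and Acod1, with matches to the same motifs in capitals:
Sod2: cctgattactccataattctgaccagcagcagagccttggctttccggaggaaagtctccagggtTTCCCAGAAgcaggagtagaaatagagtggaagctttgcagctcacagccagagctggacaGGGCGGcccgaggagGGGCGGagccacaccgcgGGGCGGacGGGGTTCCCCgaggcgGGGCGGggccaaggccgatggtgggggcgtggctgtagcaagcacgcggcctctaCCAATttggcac
The NF-kappa B consensus lies 83 to 74 bases before the start, among 4 GC boxes. It was also matched in the Gch1 stretch and not in that of Acod1. The STAT pattern is matched 185 to 177 bases before the start, and was found in 7.02% of stretches of this length, and a CCAAT box stands 12 to 8 bases before it. The AP-1 and interferon-stimulated patterns, held by 6.75% and 2.98% of all stretches, had no match in any of the 3 printed. The CCAAT box, held by 33.8% of all stretches, was the only motif matched in all 3.

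In BMM, Sod2 read 8.80, 8.89 and 8.95 on the mock arrays and 11.03, 11.36 and 10.89 on the LPS arrays. In MPI-2 it read 10.16, 10.02 and 10.14 without LPS and 11.39, 11.51 and 11.40 with it. The LPS arrays were higher than the mock arrays in both cell types, and no groups overlapped, though the lowest MPI-2 LPS array was only just above the highest BMM LPS array. The order was BMM mock, MPI-2 mock, BMM LPS and MPI-2 LPS.

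The rise of Sod2 was 2.21 ± 0.129, 4.63-fold, in BMM and 1.32 ± 0.129, 2.5-fold, in MPI-2 (limma adjusted p = 4.38e-09 and 3.21e-06). The MPI-2 response was smaller, with a difference of -0.89 ± 0.183 (interval -1.28 to -0.50, limma adjusted p = 0.00361). Without LPS, Sod2 was higher in MPI-2 by 1.23 ± 0.129, 2.34-fold (limma adjusted p = 1.39e-06), which became 0.81 after cyclic loess (limma adjusted p = 7.95e-05). With LPS the difference was 0.34 ± 0.129 (limma adjusted p = 0.0438). That call was lost in 16 of 21 alternative settings, with values from 0.04 to 0.36.

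Fewer of the other genes of superoxide and peroxide removal rose than fell. Of 21 measured, 3 rose and 9 fell in BMM (median -0.34), and 2 rose and 6 fell in MPI-2 (median -0.07). Glrx, glutaredoxin, rose by 1.14 ± 0.137 in BMM and by 0.85 ± 0.137 in MPI-2 (limma adjusted p = 1.04e-05 and 0.000383). Gpx1, the main cytosolic glutathione peroxidase, fell by 1.64 ± 0.209 in BMM and fell by 1.19 ± 0.209 in MPI-2 (limma adjusted p = 1.96e-05 and 0.000848). Prdx2, a cytosolic peroxiredoxin, fell by 1.03 ± 0.197 in BMM and fell by 1.60 ± 0.197 in MPI-2 (limma adjusted p = 0.000872 and 3.68e-05).

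Prdx3, the mitochondrial peroxiredoxin, fell by 1.25 ± 0.136 in BMM and fell by 0.85 ± 0.136 in MPI-2 (limma adjusted p = 4.03e-06 and 0.000377), and was higher in MPI-2 than in BMM by 2.18 ± 0.136 without LPS and by 2.57 ± 0.136 with it (limma adjusted p = 3.78e-09 and 4.09e-10). Sod1, the cytosolic dismutase, differed in the direction opposite to Sod2 and was lower in MPI-2, with differences of -1.40 ± 0.13 without LPS and -0.93 ± 0.13 with it (limma adjusted p = 3.31e-07 and 2.34e-05).

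NRF2, encoded by Nfe2l2, is the factor that drives antioxidant genes and that itaconate is known to activate through KEAP1. Of 20 genes of its pathway measured, 6 rose and 11 fell in BMM (median -0.53), and 4 rose and 4 fell in MPI-2 (median 0.07). In a fit to the BMM arrays alone the BMM counts were 3 and 7. The 4 that fell in MPI-2 became 2 without MPI-2 mock replicate 1 or without MPI-2 LPS replicate 3. Slc7a11, the cystine importer, rose most, by 3.75 ± 0.192 in BMM, from 5.66 to 9.40, and by 2.23 ± 0.192 in MPI-2, from 9.48 to 11.71 (limma adjusted p = 9.52e-10 and 9.19e-07). Gclm and Gclc, the subunits of the enzyme that starts glutathione synthesis, changed in BMM by -1.68 ± 0.181 and -1.65 ± 0.168 (limma adjusted p = 3.55e-06 and 1.87e-06), and in MPI-2 Gclm fell by 1.37 ± 0.181 and Gclc was at -0.37 ± 0.168 (limma adjusted p = 7.01e-05 and 0.187). The lists of superoxide and of NRF2 genes share Txnrd1 and Srxn1.

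**Figure D3:**
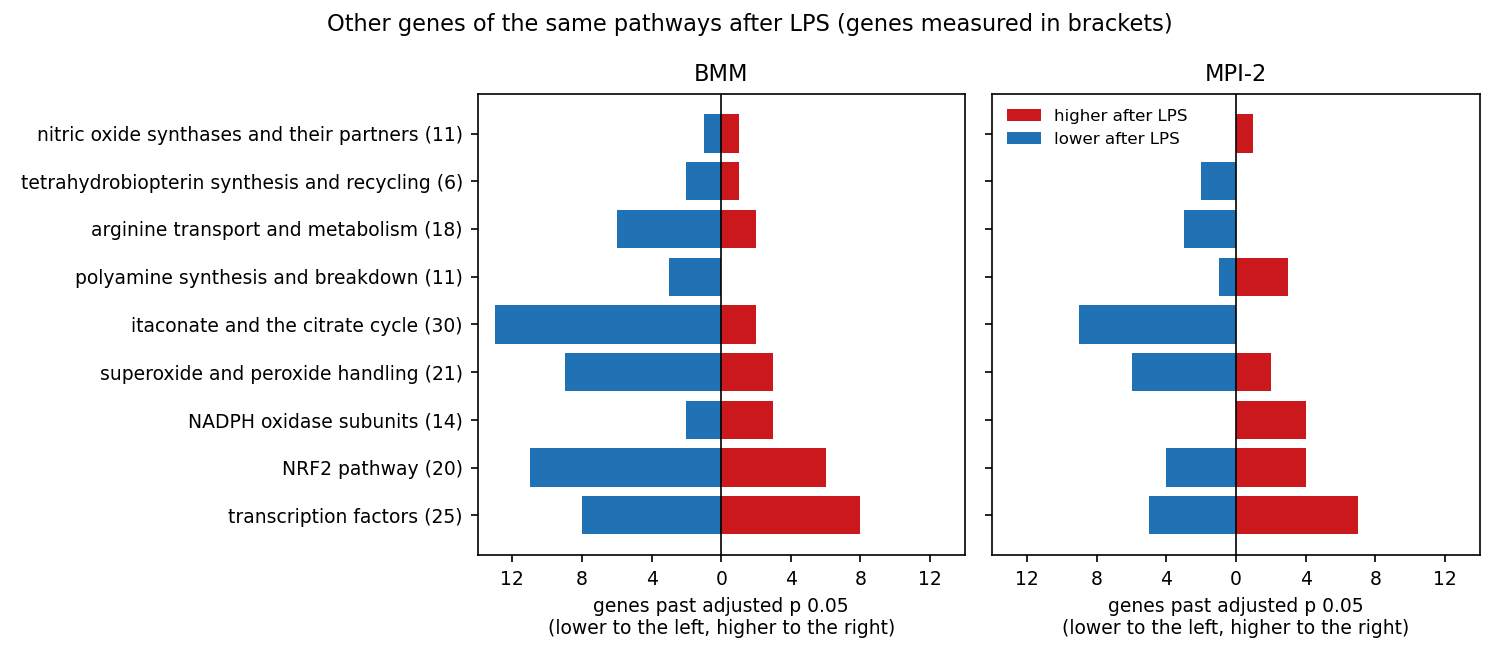
Numbers of other genes on the 9 pathway lists that rose (right, red) or fell (left, blue) after LPS at a limma adjusted p under 0.05, in BMM and in MPI-2. The number of genes measured is in brackets. In BMM the bar to the left is longest for the itaconate and citrate cycle list, 13 of 30 genes, against 2 to the right.

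Over the 9 lists, 154 of 172 other genes were measured. In BMM 25 rose (16.2%) and 54 fell (35.1%), and in MPI-2 20 rose (13%) and 30 fell (19.5%), beside the shares over all genes given above. Those shares are a low reference, as the lists hold mostly genes above background (28 of the 30 citrate cycle genes, against 60.3% of all genes). In a fit to the 12030 genes above background, 1753 rose and 3066 fell in BMM, and 1014 and 1965 in MPI-2. Over the alternative settings, 36 to 57 of the list genes fell and 20 to 29 rose in BMM. In MPI-2, 23 to 52 fell and 13 to 24 rose, so the cell types cannot be ranked by these totals. The mean of the 9 macrophage markers also read lower after LPS in BMM. It was 9.20 to 9.29 on the BMM mock arrays and 8.47 to 8.73 on the BMM LPS arrays, and 8.0 to 8.12 and 8.14 to 8.16 in MPI-2. The markers did not move together. In BMM Csf1r, Itgam, Cd68, Lyz2 and Mertk fell, Cd14 rose from 10.19 to 10.72, and Adgre1, Fcgr1 and Spi1 did not pass. In MPI-2 Cd14 rose from 7.76 to 10.40, Adgre1 and Itgam rose, Fcgr1 fell from 5.22 to 3.93, and Csf1r and Mertk fell. Of 7 eosinophil markers only the chemokine receptor gene Ccr3 rose in BMM, from 4.56 to 7.22 (limma adjusted p = 1.01e-07), and the other 6, Epx and Prg2 among them, did not pass. Of 10 neutrophil markers the gene S100a8 rose in MPI-2, from 4.80 to 6.58 (limma adjusted p = 2.75e-06), with means of 3.39 and 3.52 in BMM. Camp also rose there, from 3.00 to 3.57, and Cxcr2 fell, from 4.19 to 2.82 (limma adjusted p = 0.00954 and 8.92e-06), while the other 7 did not pass. The part of these shifts in the results above was not tested.

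Before LPS, 5 of the 7 genes differed between the cell types: Slc7a2, Sod2 and Gch1 were higher in MPI-2 and Acod1 and Arg2 lower, where 20.6% of all genes were higher and 17.9% lower. With LPS, 4 differed: Slc7a2 and Sod2 were higher in MPI-2 and Nos2 and Arg2 lower, where 22.5% of all genes were higher and 21.6% lower. In either direction, 38.6% of all genes differed without and 44.1% with LPS. Arrays of the cell types did not overlap for 5 of the 7 genes without and 6 with LPS, as for 52.4% and 55.4% of all genes. The median of the 7 differences was -0.07 without and -0.22 with LPS, against -0.10 and -0.14 over all genes, so the share that differed is to be read against a large share of all genes. Cyclic loess, which centres the genes, moved the median of all genes in the LPS comparison by 0.13. Relative to the median of all genes, the differences with LPS were 2.59 for Slc7a2, 0.48 for Sod2, -2.58 for Nos2 and -2.49 for Arg2. Subtracting that median is not the same as renormalizing. Sod2 was at 0.04 after cyclic loess and 0.22 after quantile normalization, and passed in neither (limma adjusted p = 0.8545 and 0.1392). Over the alternative settings Slc7a2 ran from 2.05 to 2.52, Nos2 from -2.97 to -2.49 and Arg2 from -2.86 to -2.40.

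Gch1 was higher in MPI-2 without LPS by 0.71 ± 0.153 (limma adjusted p = 0.00148). That call was lost after quantile normalization (0.38, limma adjusted p = 0.0678) and cyclic loess (0.31, limma adjusted p = 0.128). With LPS its difference was -0.38 ± 0.153 (interval -0.71 to -0.05, limma adjusted p = 0.0555), and 8 of 21 alternative settings took it past the threshold, with values over the settings of -0.86 to -0.32.

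Some markers of other cells differed between the cell types, in both directions. Of 6 B cell markers 4 were above background in each BMM group and 1 in each MPI-2 group, and Blnk averaged 7.59 in BMM mock and 2.69 in MPI-2 mock, while Cd79a and Ms4a1 were under background in all 4 groups. Of 4 megakaryocyte markers 4 and 3 were above background in BMM mock and LPS and 1 in each MPI-2 group, and Pf4 averaged 6.41 and 6.86 in BMM without and with LPS and 2.54 and 2.52 in MPI-2. Higher in MPI-2 were the dendritic cell marker Clec9a, at 5.83 and 5.35 without and with LPS against 2.89 and 3.18 in BMM, and the eosinophil marker Ear6, at 5.40 and 4.61 against 3.13 and 3.32. The fibroblast marker Pdgfra was also higher in MPI-2, at 6.13 and 4.41 against 3.39 and 3.50. Other genes on the lists of Clec9a, Ear6 and Pdgfra went the opposite way. Without LPS, Xcr1, Siglecf and Ccr3 (3.27 against 4.56 in BMM) were lower in MPI-2. So were Col1a1, Col3a1 and Kdr, of the fibroblast and endothelial list. Cd209a and Cdh5 also passed as lower, with means under background in both mock groups. The dendritic cell marker Ccr7 was higher in MPI-2. The part of all these markers in the differences between the cell types was not tested.

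**Figure D4:**
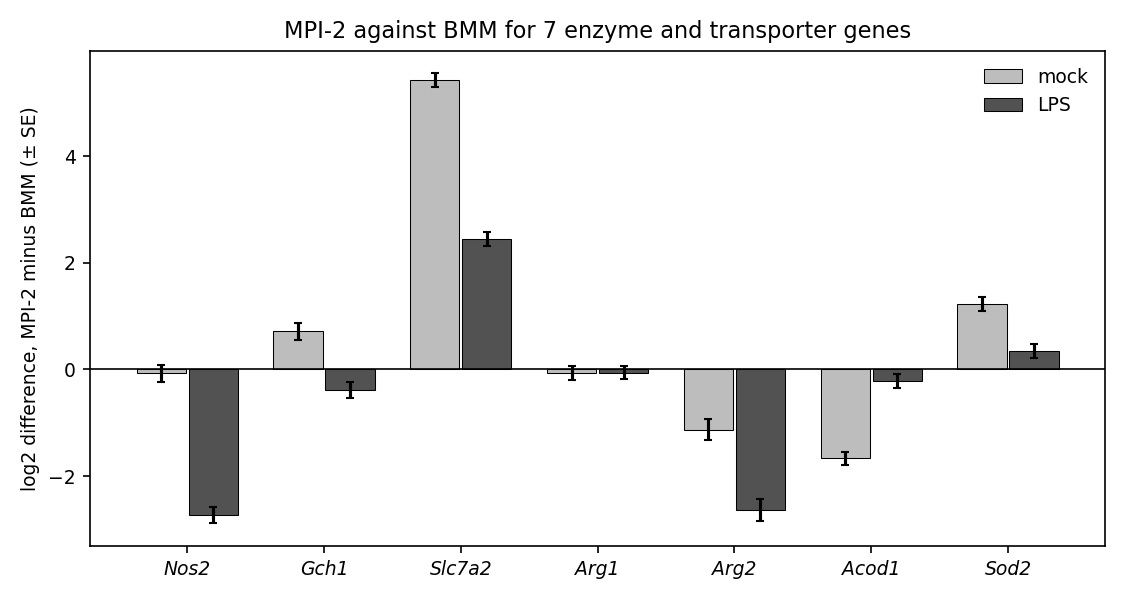
Difference between MPI-2 and BMM for the 7 measured genes, without LPS (light) and with LPS (dark). The vertical axis is log2, MPI-2 minus BMM, and error bars are the SE from limma. The Slc7a2 difference goes from 5.42 to 2.45 with LPS and that of Nos2 from -0.07 to -2.73.

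Over the 12 arrays these genes did not share 1 profile. Pearson correlations between pairs of them, which share arrays and groups and are given as description, ran from 0.92 for Sod2 and Gch1 and 0.91 for Arg2 and Nos2 down to -0.01 for Slc7a2 and Nos2 and -0.36 for Slc7a2 and Arg2. Among 11171 other named genes above background, those most like Nos2 were Calhm6, Vcam1 and Itgb8 (r = 0.995, 0.994 and 0.993). Vcam1, an adhesion molecule, averaged 3.35 in BMM mock, 7.64 in BMM LPS, and 3.05 in both MPI-2 groups.

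The genes most like Arg2 were Src, Kremen1 and Lpar1 (r = 0.989, 0.989 and 0.987), and those most like Slc7a2 were Abcc5, Olr1 and Kcna3 (r = 0.989, 0.988 and 0.987). Olr1, the oxidised LDL receptor, averaged 6.07, 10.07, 11.51 and 11.86 in BMM without and with LPS and MPI-2 without and with LPS. The genes nearest to Acod1 were Tnfaip3, Ccl4 and Srgn (r = 0.993, 0.991 and 0.984). Ccl4, a chemokine, averaged 6.01 and 10.24 in BMM without and with LPS and 4.57 and 9.57 in MPI-2.

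For Sod2 they were Map3k8, Rab11fip1 and Il1rn (r = 0.984, 0.981 and 0.98), and for Gch1 Nt5c3, Ppfibp1 and Prkx (r = 0.975, 0.974 and 0.973). Arg1 had no close match, with a highest r of 0.775 for H2-Oa, then 0.774 for Fgf17 and 0.767 for Adamtsl5, and its own values were all under background.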

How the data were processed

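For each probe set and each of 12 arrays the authors deposited a log2 value made with RMA and affy, per the submitters' processing notes (versions not given in the sources used here). This method subtracts background, equalises probe distributions between the arrays of a run and summarises probe sets, so an overall change in newly made RNA cannot be seen. No source used here says whether all 12 arrays shared 1 run. The interquartile range of gene values was 2.80 to 2.93 in BMM mock, 2.34 to 2.74 in BMM LPS, 3.27 to 3.47 in MPI-2 mock and 3.10 to 3.22 in MPI-2 LPS. It differed between the cell types and between mock and LPS, which bears on every MPI-2 against BMM value and on the LPS changes. Of the genes called after LPS, 40.14% rose in BMM and 35.06% in MPI-2, and 49.31% and 42.55% after cyclic loess. Arrays give no read depth; 3 per group limits the precision. The titles call the arrays biological replicates without naming separate cultures or animals, so a p-value here measures only how these samples spread, which may be technical. Pairing by replicate number was not used in the main fit: of 18 same-numbered pairs, 2 had residuals correlating over 0.1. The highest was 0.24, for replicate 1 of BMM mock and BMM LPS. With 3 arrays a group this check cannot exclude pairing. Numbers were taken from the titles, and the descriptions number some MPI-2 arrays differently.

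Of 34760 probe sets 21640 name 1 gene, 1321 several and 11799 none here; only the first were used, and a gene with several was represented by the one with the highest mean. Symbols were updated through Entrez identifiers (19855 symbols). Limma 3.58.1 in R 4.3.3 fitted 4 group means to the 12 arrays (8 residual degrees of freedom, 6.99 added by empirical Bayes), with no filter. The fit was also run on simulated data with equal spread in all 4 groups. The real groups did not have equal spread, so that run does not show how the fit handles it. Each p was adjusted by Benjamini-Hochberg over 19937 genes, threshold 0.05. Members, lists and tests were chosen with earlier results of these data known. By rule, all members are named, and from each list up to 3 genes with the largest increase and 3 with the largest decrease past the threshold without overlap of arrays, given in part. For each member the 3 genes with the highest correlation are named. Of 11 lists of marker genes, the text gives counts above background for some and single genes for others. On the lists without such counts there, neutrophil markers above background were 3 or 4 of 10 per group, and dendritic cell markers 3 or 4 of 8. Mast cell and basophil markers were 0 or 1 of 8, eosinophil markers 2 or 3 of 7, and T and NK cell markers 1 of 7. Erythroid markers were 1 or 2 of 4, and fibroblast and endothelial markers 4 to 8 of 9.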

Additional observations from a re-analysis of the deposited data

Results flagged for a closer look

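The response to LPS differed between MPI-2 and BMM for 6 of the 7 genes by limma's test of the difference itself (MPI-2 minus BMM, log2, adjusted over all genes). For Acod1 it was 1.45, with the larger rise in MPI-2. It was -2.65 for Nos2, -1.51 for Arg2, -2.97 for Slc7a2, -1.09 for Gch1 and -0.89 for Sod2. For Nos2 and Arg2 both MPI-2 groups lay under background.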

How the results depend on the processing

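Of 25 called results among the 35 of these genes, 22 kept their direction and call under every alternative that gave a value, up to 21 of them. The exceptions are Gch1 in MPI-2 and Gch1 and Sod2 between the cell types, given above, and no called result reversed. Genes called after LPS in MPI-2 numbered 2941, against 5026 in a fit to the MPI-2 arrays alone and 5183 with array weights. In BMM they numbered 5114, 3464 and 4477, so MPI-2 had the higher count under both alternatives. Leaving out 1 replicate at a time gave 4309 to 5562 genes for LPS in BMM, 2106 to 3414 for LPS in MPI-2, 2075 to 3025 for the difference, and 6261 to 8383 and 6994 to 9274 for the cell types without and with LPS. Of these 7 genes, 6, 3 to 4, 6, 5 and 3 to 5 passed. With the replicate number as a block, 5182, 2988, 2686, 7631 and 8786 genes passed and 6, 4, 6, 5 and 4 of the 7. The block brought Gch1 between the cell types with LPS past the threshold (-0.38, limma adjusted p = 0.038) and took Sod2 there out (0.34, limma adjusted p = 0.0551), and changed no other call among them.

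Uncalled values that changed sign were, for MPI-2 against BMM without LPS, Nos2 (0.12 after quantile normalization, 0.15 after cyclic loess, and -0.17 to 0.027 without 1 replicate) and Arg1 (0.11, 0.10 and -0.14 to 0.029). With LPS they were Arg1 at 0.16 after both normalizations and -0.13 to 0.0075 without 1 replicate. The Arg1 difference of responses ran from -0.089 to 0.084 without 1 replicate. All these values lay at background. The cause was not tested for any of these shifts. Arg1 drops out where genes under background are removed, and averaging probe sets leaves these genes as they are. A fit to the compared arrays alone has no value for the difference of responses. Of 158 named results for pathway genes, 130 kept their call under every setting and none reversed. Counts of called list genes moved by over 1.5 times elsewhere too: polyamine genes lower in MPI-2 went from 5 to 3 without BMM mock replicate 1, superoxide genes lower in MPI-2 from 5 to 9 (mock) and 8 (LPS) after cyclic loess, and NRF2 genes higher in MPI-2 with LPS from 11 to 7.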

Other observations

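NADPH oxidase makes the superoxide that superoxide dismutases remove. Of 14 of its subunits and relatives measured, 3 rose and 2 fell after LPS in BMM, and 4 rose and none fell in MPI-2, where the 4 became 2 without MPI-2 mock replicate 3 or without MPI-2 LPS replicate 1. Nox1, a catalytic subunit best known from colon, read like Nos2: it averaged 3.07 in BMM mock, 6.64 in BMM LPS, 2.50 in MPI-2 mock and 2.62 in MPI-2 LPS. Its rise in BMM was at least 9.66-fold over background (3.57 ± 0.152, limma adjusted p = 1.4e-10), and the difference of the responses was -3.44 ± 0.215 (limma adjusted p = 4.3e-08). Cybb, the phagocyte catalytic subunit, rose by 1.98 ± 0.127 in BMM and by 1.28 ± 0.127 in MPI-2 (limma adjusted p = 1.18e-08 and 3.51e-06).

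A list of transcription factors and related regulators linked to Nos2 or Arg1 held 25 measured genes, whose sites at Nos2 and Arg1 were not examined. Of the 25, 8 rose and 8 fell in BMM, and 7 rose and 5 fell in MPI-2. The 7 became 4 without any 1 of MPI-2 mock replicates 1 and 2 and MPI-2 LPS replicates 2 and 3, and the 5 became 9 in a fit to the MPI-2 arrays alone and with array weights. Irf1, an interferon-regulated factor, rose by 2.06 ± 0.138 in BMM, from 8.27 to 10.34 (limma adjusted p = 1.89e-08), while its change in MPI-2 was 0.18 ± 0.138 (limma adjusted p = 0.531). The difference of the Irf1 responses was -1.88 ± 0.194 (limma adjusted p = 7.15e-06). Irf7 rose by 2.51 ± 0.204 in BMM (limma adjusted p = 1.65e-07) and differed by -5.44 ± 0.204 between MPI-2 and BMM with LPS (limma adjusted p = 7.79e-12). Nfkbiz, an inducible member of the I kappa B family, moved more in MPI-2, by 3.90 ± 0.156 against 1.50 ± 0.156 in BMM, a difference of 2.40 ± 0.221 (limma adjusted p = 2.17e-06). Klf4, a factor tied to alternative activation, changed by -1.54 ± 0.232 in BMM and by -1.77 ± 0.232 in MPI-2 (limma adjusted p = 9.91e-05 and 6.44e-05).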
